A study of Mus musculus with 18 samples.

Results

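The mRNAs that sit on heavy polysomes were compared with the mRNAs of unfractionated lysate, called input, in Dap5 knockdown cells (shDap5). The libraries were chosen by their titles: 3 of shDap5 heavy polysomes and 3 of shDap5 input, out of 18 in the series. The cells were 4T1, a BALB/c mouse mammary carcinoma line that stands in for triple-negative human tumours in many studies, and they carried an inducible hairpin against Dap5, the protein product of the gene Eif4g2. All 6 groups had received 2 µg/ml doxycycline for 6 days, so the control cells, which carried a non-silencing hairpin (NSi), had seen the drug as well. The other groups named below are used only beside the shDap5 values: NSi heavy polysomes, NSi input and shDap5 light polysomes, with 3 libraries each. Lysate was separated on sucrose gradients, fractions were pooled into light and heavy polysomes, and polyadenylated RNA was sequenced. The labels do not say whether the hairpin lines were clones or pools, how many hairpins were used, or whether each library had its own culture. The p-values therefore cover only the variation seen among these libraries, some of which may be technical.

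Ribosomes load onto an mRNA one after another, and the mRNAs that carry many of them sink furthest in a sucrose gradient. Heavy polysomes are therefore rich in mRNAs under active translation, while nuclear RNAs and mRNAs held out of translation are depleted from them, and a long coding sequence can carry more ribosomes than a short one. Most mRNAs are recruited to the ribosome through the cap-binding factor eIF4E and the scaffold eIF4G. DAP5 is a relative of eIF4G that lacks the eIF4E-binding region and can recruit ribosomes in other ways, among them through eIF3d, a subunit of the initiation factor eIF3 that can bind the cap itself.

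Counts per gene summed to between 38237669 and 71331978 in the shDap5 heavy libraries and between 49130045 and 69233705 in the shDap5 inputs. Levels are given in CPM, a gene's counts divided by those of its library and multiplied to a common size, scaled by the TMM method of edgeR, so each is a share of its library and not an amount of RNA per cell. For a gene without a count, the level allowed by counting error alone is 3 counts, or 0.048 to 0.092 CPM on heavy polysomes and 0.0394 to 0.0577 CPM in input. The libraries pool many cells, and fewer cells with an mRNA on heavy polysomes cannot be told apart from less of it there in each cell. Every pair of replicates differed by more than sampling noise. The second shDap5 input stood apart from the other two: the log2 differences between it and them had an SD of 0.402 and 0.426 over genes, against 0.12 between the first and the third. The 3 heavy libraries differed from each other by an SD of 0.441 to 0.653.

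The epithelial markers of a carcinoma line were well expressed. Krt8 and Krt18, keratins of simple epithelium, averaged 1321 ± 127 and 2462 ± 301 CPM on shDap5 heavy polysomes and 497 ± 140 and 1131 ± 224 CPM in shDap5 input (SD, n = 3 each). Markers of other cell types were low. Of 10 macrophage markers 5 could be tested, with a summed level of 88.6 to 142 CPM on heavy polysomes and 36 to 73.9 CPM in input, most of it from Cd68 and Cd14. Of 8 fibroblast markers 4 were tested, at 13.7 to 24.6 CPM on heavy polysomes and 23.4 to 30.8 CPM in input, most of it from Pdgfra. The 5 endothelial markers tested out of 8 summed to 0.962 to 1.56 CPM on heavy polysomes and 0.867 to 1.55 CPM in input, and 1 of 5 adipocyte markers, Fabp4, to 1.46 to 2.73 and 0.342 to 0.785 CPM. None of 9 lymphocyte and 6 red cell markers had enough counts to be tested. What part such cells had in the results below was not tested.

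A large part of the genes tested differed in their share between heavy polysomes and input in the knockdown cells. A gene is called, and is said to have risen or fallen, where the quasi-likelihood F test of edgeR gave an adjusted p (Benjamini-Hochberg over all genes tested) under 0.05. Of 15072 genes tested, 7209 were called (47.8%), 4021 of them higher on heavy polysomes (26.7%) and 3188 lower (21.2%). A change of at least 2-fold was called in 3866 genes (25.7%). The median gene changed by 0.05 on the log2 scale. Of the 12887 genes among them with a protein-coding transcript in GENCODE, 3899 rose and 2474 fell, with a median of 0.14 (NSi 0.14). The split into higher and lower depends on how libraries are scaled: 55.8% of called genes were higher with TMM, 50.9% with the RLE method, 43% with upper quartile scaling and 30% when counts were divided by library totals alone. With upper quartile scaling the median gene stood at -0.13, and with library totals at -0.33. The changes below are on the TMM scale, and a list whose median changes sign under another scaling is named as such. The lists and their background are described by counts and medians, with no test of the list as a whole. Each count for a list below is to be read beside those over all genes and over protein-coding genes.

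Eif4g2, the target of the hairpin, was lower on heavy polysomes than in input in the knockdown cells. It stood at 358, 277 and 222 CPM in the shDap5 heavy libraries, against 592, 340 and 671 CPM in the shDap5 inputs. The groups overlapped, because the second input lay below the first heavy library. The log2 change was -0.90 (SE 0.26, adjusted p = 0.00752 by edgeR). In NSi cells Eif4g2 averaged 782 CPM on heavy polysomes and 803 CPM in input, a log2 change of -0.04. The difference between the enrichments, shDap5 minus NSi, was -0.87 (unadjusted p = 0.0275) and did not pass after adjustment over all genes (adjusted p = 1).

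Nuclear noncoding RNAs were depleted. Malat1, a noncoding RNA of nuclear speckles, stood at 11.8, 9.15 and 5.92 CPM in the 3 shDap5 heavy libraries, against 321, 448 and 325 CPM in the 3 shDap5 inputs. No heavy library came near an input, and Malat1 fell by 5.36 on the log2 scale (SE 0.36, adjusted p = 2.36e-08). Neat1, the architectural RNA of nuclear paraspeckles, stood at 53.3, 48.4 and 47.1 CPM on heavy polysomes, against 266, 852 and 219 CPM in input. The second input held far more Neat1 than the other two, while the heavy libraries were close together; the log2 change was -3.17 (SE 0.40, adjusted p = 7.58e-06). Firre, a nuclear RNA transcribed from the X chromosome, averaged 4.3 ± 0.396 CPM on heavy polysomes and 71.3 ± 21.8 CPM in input, a log2 change of -4.05. All 8 nuclear noncoding RNAs of a list that could be tested fell and none rose, with a median log2 change of -2.14; in NSi cells the same median was -2.30.

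Host transcripts of small nucleolar RNAs were depleted as well. These spliced RNAs carry small nucleolar RNAs in their introns and have little coding capacity. Of 19 tested, 17 fell and none rose, with a median log2 change of -1.85 (NSi -1.93). Gas5, which is known to associate with ribosomes and to be destroyed in a translation-dependent way, stood at 115, 68 and 134 CPM on shDap5 heavy polysomes, against 335, 377 and 335 CPM in shDap5 input. The groups lay well apart, and Gas5 fell by 1.72 on the log2 scale (SE 0.32, adjusted p = 0.000298). On shDap5 light polysomes Gas5 stood at 386, 314 and 752 CPM, which overlapped the inputs, and the log2 change of 0.47 did not pass (adjusted p = 0.215). Dancr and Snhg7, further hosts, changed by -2.81 and -2.58 on heavy polysomes and by -0.85 and -0.56 on light ones. The median of the list on light polysomes was -0.01. The wider class of genes that GENCODE annotates as noncoding numbered 924 among those tested, of which 37 rose and 317 fell, with a median of -0.72 (NSi -0.91); 808 of these averaged under 5 CPM.

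**Figure D1:**
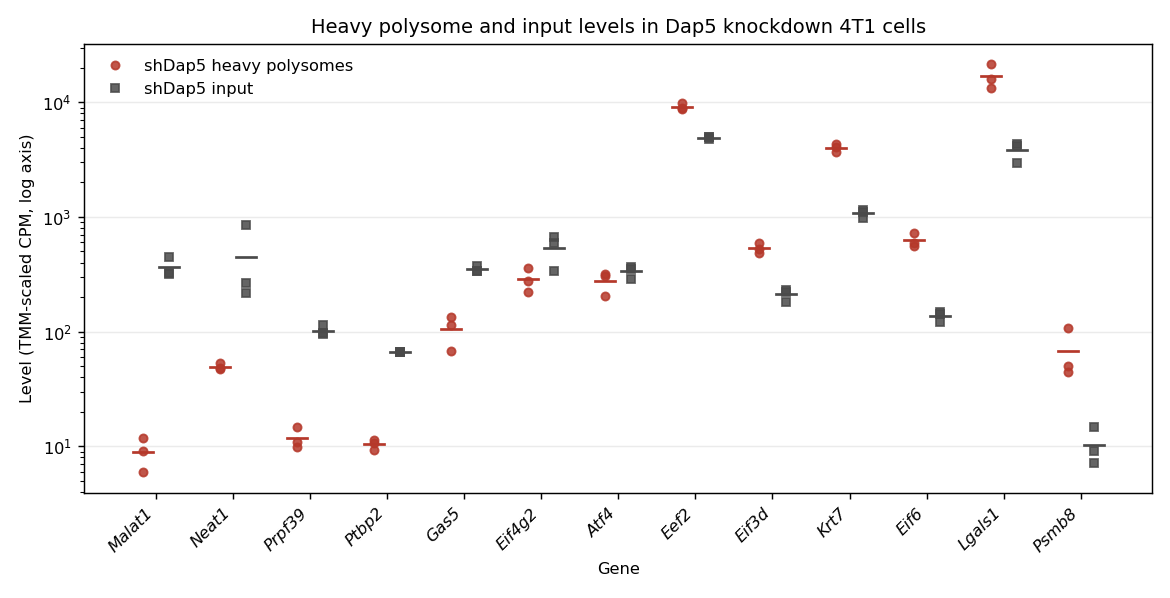
Levels of 13 genes in TMM-scaled CPM on a log axis, with the 3 shDap5 heavy polysome libraries as circles left of the 3 shDap5 inputs as squares; short lines are means. Malat1, Neat1, Prpf39, Ptbp2 and Gas5 lie lower on heavy polysomes in all libraries, Eif4g2 and Atf4 overlap, and the genes from Eef2 to the right lie higher on heavy polysomes in all libraries.

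Initiation factors moved both ways. Of 35 tested, 13 rose and 3 fell, beside 26.7% higher and 21.2% lower over all genes tested. The median of the list was 0.42 (NSi 0.54). With library totals 9 rose and 8 fell, with a median of 0.06. Without the first heavy library the median was 0.16, and without the second input 0.26. Eif3d, the eIF3 subunit that works with DAP5, stood at 590, 525 and 484 CPM on heavy polysomes, against 222, 182 and 231 CPM in input. Every heavy library was above every input, and the log2 change was 1.33 (SE 0.17, adjusted p = 7.46e-06). Eif6, which keeps the large ribosomal subunit from joining too early, averaged 626 ± 82.9 CPM on heavy polysomes and 138 ± 13.7 CPM in input (SD, n = 3 each), a log2 change of 2.19. Further eIF3 subunits rose alongside, Eif3g by 1.72, Eif3k by 1.65 and Eif3i by 1.51 on the log2 scale, as did Eif2b5, the catalytic subunit of the exchange factor of eIF2, by 1.33. A few further members were picked after their values were seen. Eif4a2, a helicase of the cap-binding complex, fell by 1.03, and Eif5, the activator of the GTPase step of eIF2, by 0.71. The scaffold Eif4g1 changed by -0.06 (adjusted p = 0.863) and the cap-binding Eif4e by -0.10 (adjusted p = 0.734), neither of which passed.

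The mRNAs that begin with a 5′ terminal oligopyrimidine tract (TOP), and that encode the translation machinery itself, were mixed. Of 80 genes of cytosolic ribosomal proteins, 20 rose and 26 fell; their median log2 change was 0.12 with TMM, turned to -0.06 with upper quartile scaling and -0.25 with library totals, and was -0.05 without the first heavy library. The count of rises reached 28 without the second heavy library and 12 without the third. Many of these genes have processed copies elsewhere in the genome with which they share reads, and several held far fewer counts than such abundant mRNAs usually do: Rps12 averaged 10.8 ± 3.36 CPM on heavy polysomes and 47.1 ± 1.95 CPM in input, and Rpl30 5.99 ± 1.79 and 22.5 ± 1.54 CPM. The sources used here do not say how shared reads were counted, so the levels and directions of these genes are uncertain. Fau, a ribosomal protein made as a fusion with a ubiquitin-like protein, rose by 1.27 on the log2 scale. Of 22 other TOP mRNAs 9 rose and 1 fell, with a median of 0.52 (NSi 0.63); 13 rose without the second heavy library and 6 without the first, and with library totals 5 rose and 5 fell, with a median of 0.14. Eef2, the elongation factor that moves the ribosome along, stood at 9812, 8768 and 9009 CPM on heavy polysomes, against 4828, 4966 and 4997 CPM in input. These are tight and separate groups, with a log2 change of 0.90 (SE 0.23, adjusted p = 0.00321). Eef1d, part of the exchange factor that reloads elongation factor 1, rose by 1.75 on the log2 scale. Eef1a1, elongation factor 1 itself, stood at 4889, 2763 and 3841 CPM on heavy polysomes, against 2809, 3187 and 2736 CPM in input. The second heavy library lay among the inputs, and the log2 change of 0.40 did not pass (adjusted p = 0.227). The TOP mRNA that fell was Hnrnpa1, a splicing regulator, by 1.91 on the log2 scale, and it too has many genomic copies.

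Messages with known control elements in their leader or tail followed no single direction. Upstream open reading frames are short reading frames ahead of the main one that capture scanning ribosomes; of 15 genes known for them, 3 rose and 6 fell, with a median of -0.24 (NSi -0.23). Atf4, the textbook example and a transcription factor of the integrated stress response, stood at 318, 206 and 307 CPM on heavy polysomes, against 352, 288 and 364 CPM in input. The groups overlapped and the change of -0.27 did not pass (adjusted p = 0.297), while on light polysomes Atf4 stood 1.06 above input on the log2 scale. Atf5, a factor with similar leaders, stood at 107, 100 and 115 CPM on heavy polysomes, against 18.6, 66.5 and 21.6 CPM in input. All heavy libraries were above all inputs although the second input was high, and Atf5 rose by 1.59 (SE 0.33, adjusted p = 0.00066). Cebpb, a transcription factor whose leader sets which protein form is made, rose by 1.79. Among those that fell were Ifrd1, by 0.63, and Azin1, an antizyme inhibitor of polyamine control, by 0.84.

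Targets of the integrated stress response, which Atf4 switches on, were enriched where they changed: 10 of 22 rose and none fell, with a median of 0.61 (NSi 0.54). Trib3, a pseudokinase induced under stress, stood at 95.1, 145 and 104 CPM on heavy polysomes, against 17.5, 58.8 and 17.5 CPM in input. The second library was the highest in both groups, yet the groups did not overlap, and the log2 change was 1.88 (SE 0.39, adjusted p = 0.000809). Phgdh, the entry enzyme of serine synthesis, rose by 1.66, the seryl tRNA synthetase gene Sars by 1.5 and asparagine synthetase (Asns) by 1.28. Of all 21 cytosolic and other tRNA synthetases tested, which charge tRNAs with amino acids, 13 rose and none fell, with a median of 0.80 (NSi 0.97).

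Iron-responsive elements are hairpins through which iron levels control ferritin translation and the stability of the transferrin receptor mRNA. Of 7 genes with such elements 2 rose and 2 fell. Ftl1, the ferritin light chain, averaged 635 ± 178 CPM on heavy polysomes and 271 ± 102 CPM in input, a log2 change of 1.23 (adjusted p = 0.00317). Fth1, the heavy chain, stood at 3740, 2425 and 4984 CPM on heavy polysomes, against 2035, 2615 and 2086 CPM in input. The second libraries crossed, and the change of 0.73 did not pass (adjusted p = 0.125); on light polysomes Fth1 averaged 9755 CPM. Tfrc, the transferrin receptor, fell by 1.12 (adjusted p = 0.0466), a call lost without the first or the third heavy library and without the first or the third input.

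Selenoproteins, whose UGA codon is read as selenocysteine through an element in the 3′ tail, rose in 8 of 16 genes and fell in 1, with a median of 0.67 (NSi 0.41). Gpx4, a peroxidase that protects membrane lipids, stood at 151, 90 and 206 CPM on heavy polysomes, against 46.8, 62.2 and 40.6 CPM in input. The lowest heavy library was still above the highest input, and Gpx4 rose by 1.58 on the log2 scale (SE 0.26, adjusted p = 9.66e-05). Selm, a small selenoprotein of the endoplasmic reticulum, rose by 1.80, and Selt was the member that fell, by 1.05.

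A further list was drawn up around splicing regulators known for exons that lead to decay of the mRNA when included. Of its 28 genes tested 17 fell and 3 rose, with a median of -0.81 (NSi -0.45). Ptbp2, a regulator of neuronal splicing, stood at 11.4, 10.6 and 9.23 CPM on heavy polysomes, against 66.3, 66.5 and 66.7 CPM in input. Replicates were nearly identical within each group, and Ptbp2 fell by 2.68 on the log2 scale (SE 0.15, adjusted p = 5.61e-09). Pnisr, a protein of nuclear speckles, fell by 2.29, and Ogt, a glycosyltransferase and not a splicing regulator, by 2.06. Tia1, a regulator of splicing and translation, fell by 1.60 and Srsf5, a splicing factor of the SR family, by 1.56. Clk4, a kinase that phosphorylates SR proteins, fell by 1.41. Zinc finger genes with the Zfp symbol, largely transcription repressors with long arrays of fingers, formed the largest list: 180 of 319 fell and 38 rose, with a median of -0.71 (NSi -0.81). Zfp160 averaged 4.08 ± 0.565 CPM on heavy polysomes and 24.1 ± 1.04 CPM in input, a log2 change of -2.56, and Zfp868 and Zfp280d fell by 1.91 and 1.81.

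Nuclear genes for mitochondrial proteins were among the most uniformly enriched. Of 87 genes of the respiratory chain, ATP synthase and their assembly factors, 69 rose and 6 fell, with a median of 1.11 (NSi 1.0). Atp5d, the delta subunit of the ATP synthase, stood at 986, 730 and 1257 CPM on heavy polysomes, against 214, 206 and 222 CPM in input. The lowest heavy library was more than 3 times the highest input, and the log2 change was 2.21 (SE 0.19, adjusted p = 1.82e-07). Ndufs7 and Ndufs8, iron-sulphur subunits of complex I, rose by 1.92 and 1.72, and Sdhb, the iron-sulphur subunit of complex II, by 1.62. Of 76 proteins of the mitochondrial ribosome 63 rose and 1 fell, with a median of 1.02 (NSi 1.07). Mrps34 averaged 156 ± 18.9 CPM on heavy polysomes and 40.4 ± 0.892 CPM in input, a log2 change of 1.95 that Mrpl28 shared. RNAs made inside the mitochondrion are translated there and not on cytosolic polysomes; of 7 that the files list under names such as COX1 and CYTB, a list added after the files were seen, none was called, and their median was -0.17 (NSi 0.36), or 0.09 without the third heavy library and 0.15 without the second input. CYTB stood at 5064, 2121 and 3612 CPM on heavy polysomes, against 3173, 3635 and 2696 CPM in input. The heavy values spread to both sides of the inputs (adjusted p = 0.777).

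Proteasome subunits rose without exception among those called. Of 37 tested, 30 rose and none fell, with a median of 1.12 (NSi 1.33). Psmb4, a subunit of the core particle, stood at 889, 619 and 743 CPM on heavy polysomes, against 234, 187 and 232 CPM in input. The groups lay far apart, with a log2 change of 1.79 (SE 0.16, adjusted p = 2.52e-07). Psmb5, the core subunit that cleaves after hydrophobic residues, rose by 2.03, Psmb6 by 1.96 and Psmd3, of the regulatory cap, by 1.36. Psmb8, a subunit of the immunoproteasome, whose subunits replace those of the core in antigen processing, stood at 44.4, 50.1 and 108 CPM on heavy polysomes, against 9.05, 14.6 and 7.19 CPM in input. The third heavy library was the highest and the second input the highest of its group, and the log2 change was 2.71 (SE 0.38, adjusted p = 2.07e-05). Psmb10, another such subunit, rose by 2.17.

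Enzymes of glycolysis and genes of the hypoxia response rose in 16 of 32 cases and fell in none, with a median of 0.67 (NSi 0.74). With library totals 9 rose and 4 fell, with a median of 0.30, and without the second heavy library 16 rose and 2 fell. Pkm, pyruvate kinase, was among the most abundant mRNAs, at 5254, 4171 and 3240 CPM on heavy polysomes, against 1796, 1085 and 1926 CPM in input. All heavy libraries exceeded all inputs, and the log2 change was 1.40 (SE 0.23, adjusted p = 8.81e-05). Eno1, enolase, rose by 1.90, the aldolase Aldoa by 1.77 and Tpi1, triosephosphate isomerase, by 1.56; these genes too have genomic copies that share reads. Beside 26.7% higher and 21.2% lower over all genes tested, 5 of 24 cholesterol synthesis genes rose and 6 fell. Their median of 0.05 was negative with RLE (-0.02), upper quartile scaling (-0.10) and library totals (-0.29), and it was -0.27 without the second shDap5 input, where 1 rose and 8 fell, and -0.04 without the third heavy library. Ebp, a sterol isomerase, rose by 1.37 and Idi1, the isopentenyl diphosphate isomerase, fell by 2.26.

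**Figure D2:**
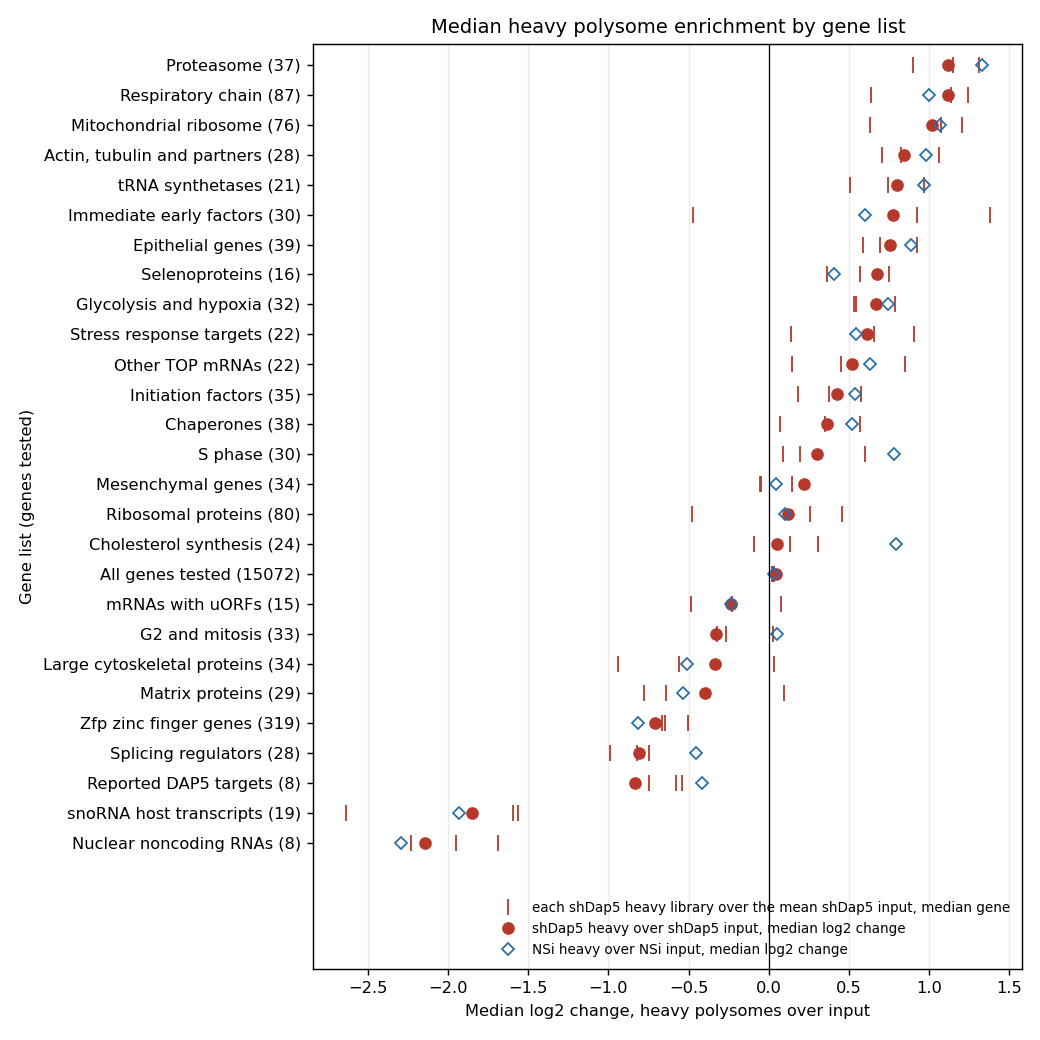
Median log2 change, heavy polysomes over input, for 26 gene lists and all genes tested, with the number of genes tested in parentheses. Filled circles are shDap5, vertical ticks the median gene of each shDap5 heavy library over the mean shDap5 input, and open diamonds NSi; the proteasome, respiratory chain and mitochondrial ribosome lists lie at 1.02 or above in shDap5, and the 2 noncoding lists at -1.85 or below.

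Dividing by library totals, which lowers the median gene, moved the counts of other lists as well. Rises then numbered 6 and falls 1 among stress response targets, 3 and 2 among selenoproteins, and 8 and 0 among tRNA synthetases. Proteasome subunits had 26 rises and 1 fall, respiratory chain genes 52 and 7, and mitochondrial ribosomal proteins 44 and 2. Actin and tubulin genes had 17 rises and 1 fall, epithelial genes 17 and 7, mesenchymal genes 7 and 11, and ribosomal proteins 8 and 33. The S100 list kept 4 rises with no fall. Lists that were mostly lower had more falls, with 18 of 34 large structural proteins, 14 of 29 matrix genes and 19 of 33 genes of G2 and mitosis. Falls also numbered 220 of 319 zinc finger genes and 23 of 28 genes of the splicing regulator list.

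Genes of the cytoskeleton and the matrix moved both ways. Actin, tubulin and their small partners rose in 21 of 28 cases and fell in none, with a median of 0.84 (NSi 0.98). Tubb5, a beta tubulin, stood at 4536, 3979 and 4794 CPM on heavy polysomes, against 2315, 1660 and 2613 CPM in input. The groups were separate, with a log2 change of 1.01 (SE 0.20, adjusted p = 0.000506). Cfl1, the actin-severing cofilin, rose by 1.56, and Actb by 1.04, a call lost without the first heavy library. Large structural proteins were lower more often than higher: of 34 spectrins, myosins and the like 3 rose and 10 fell, with a median of -0.33 (NSi -0.51). Their median length was 2620.5 residues. Among all genes with proteins of 1200 or more residues 8.47% rose and 32.3% fell, with a median of -0.35, close to that of the list. Sptbn1, a spectrin, fell by 2.14, and the nonmuscle myosins Myh10 and Myh9 by 1.74 and 1.5. Ahnak2 was one of the 3 that rose, by 0.97. The falls numbered 15 without the second heavy library and 6 without the third.

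Of 29 matrix and secreted structural genes 2 rose and 6 fell, with a median of -0.40 (NSi -0.54). Falls numbered 12 without the second heavy library and 3 without the third. The median length of the list was 1669 residues. Over all genes with proteins of 1200 or more residues 8.47% rose and 32.3% fell, with a median of -0.35. Fn1, fibronectin, stood at 642, 1193 and 521 CPM on heavy polysomes, against 1794, 2533 and 1691 CPM in input. The second library was the highest in both groups, and Fn1 fell by 1.35 (SE 0.36, adjusted p = 0.00451). Col7a1, the collagen of anchoring fibrils, fell by 2.36 and Tnc, tenascin C, by 2.21, whereas Sparc, a small matricellular protein, rose by 1.04.

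Epithelial genes were enriched more often than depleted, 21 against 5 of 39, with a median of 0.75 (NSi 0.89). Krt7, a keratin of glandular epithelium, stood at 4302, 4076 and 3667 CPM on heavy polysomes, against 975, 1144 and 1100 CPM in input. Both groups were tight, and the log2 change was 1.90 (SE 0.18, adjusted p = 5.27e-07). Krt19 rose by 1.74, the tight junction claudins Cldn3 and Cldn4 by 1.76 and 1.38, and the junction protein plakoglobin, Jup, by 1.29. Cdh1, E-cadherin, stood at 565, 1066 and 469 CPM on heavy polysomes, against 628, 759 and 675 CPM in input. Heavy libraries lay on both sides of the inputs, with a log2 change of 0.03 (adjusted p = 0.947), and Epcam changed by 0.08 (adjusted p = 0.81). Of 34 mesenchymal genes 8 rose and 7 fell, beside 26.7% higher and 21.2% lower over all genes tested. The median of the list, 0.22 (NSi 0.05), was -0.16 with library totals. Vim, vimentin, the intermediate filament of mesenchymal cells, stood at 2134, 1962 and 2447 CPM on heavy polysomes, against 884, 831 and 947 CPM in input. It rose by 1.30 on the log2 scale (SE 0.20, adjusted p = 5.98e-05). Tgfb1, the growth factor that drives epithelial cells to a mesenchymal state, rose by 1.5, and Snai1, a transcription repressor of Cdh1, by 0.95. Tnc, tenascin C, was among the 7 that fell and had the lowest log2 change of the list, -2.21.

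Immediate early and other unstable transcription factors are induced within minutes of a stimulus. Of 30 tested 9 rose and 1 fell, with a median of 0.78 (NSi 0.60). The count of rises was near the background, since 26.7% of all genes tested rose, and 3899 of the 12887 protein-coding genes. With library totals 2 of the 30 rose and 2 fell. The heavy libraries disagreed on this list: over the mean input its median gene stood at 0.92 in the first, -0.47 in the second and 1.38 in the third. The rises numbered 11 without the second heavy library and 3 without the third. Junb, a partner of Fos in AP-1, stood at 1415, 911 and 2465 CPM on heavy polysomes, against 393, 464 and 338 CPM in input. The spread among heavy libraries was wide but above every input, and Junb rose by 2.00 (SE 0.41, adjusted p = 0.000727). Id1, an inhibitor of helix-loop-helix factors, rose by 1.55, and Klf6 was the member that fell, by 0.71. Of 26 cytokines and chemokines 3 rose and 1 fell; the median of 0.20 was -0.18 with library totals and -0.06 without the third heavy library. Mif, an abundant cytokine kept in the cytosol, rose by 1.88, Cxcl16, a chemokine made as a membrane protein, by 1.08, and Il1a, interleukin 1 alpha, fell by 1.14, a call lost without the first input. Calcium-binding S100 proteins and metallothioneins rose in 7 of 12 cases and fell in none, with a median of 0.98 (NSi 0.44), a count of 9 without the second heavy library and 4 without the third. S100a6 stood at 3718, 2896 and 6067 CPM on heavy polysomes, against 2354, 1974 and 2761 CPM in input. It rose by 0.84 on the log2 scale (adjusted p = 0.0117), a call lost without the third heavy library.

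Cell cycle genes moved both ways. Of 30 genes of S phase 9 rose and 3 fell, beside 26.7% higher and 21.2% lower over all genes tested. The median of the list, 0.30 (NSi 0.78), was -0.06 with library totals, where 4 rose and 6 fell. It was 0.05 without the first heavy library and 0.06 without the second input, where 7 rose and 5 fell. Mcm7, a subunit of the replicative helicase, averaged 278 ± 12.2 CPM on heavy polysomes and 153 ± 33 CPM in input, a log2 change of 0.86, and Rfc2, of the clamp loader, rose by 1.09. Hells, a chromatin remodeller, fell by 1.68. Of 33 genes of G2 and mitosis 5 rose and 12 fell, with a median of -0.33 (NSi 0.05). Cdc20, an activator of the anaphase-promoting complex, stood at 290, 322 and 277 CPM on heavy polysomes, against 150, 135 and 156 CPM in input. It rose by 1.01 (SE 0.17, adjusted p = 0.000109), while the checkpoint kinase Bub1 fell by 1.60 and the mitotic cyclin Ccnb1 by 0.76.

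The 8 tested genes that other work has named as DAP5-dependent made up a further list. None rose and 5 fell, with a median of -0.83 (NSi -0.42). The 2 medians stand apart through Eif4g2, the target of the hairpin, which is a member. The median of the members' differences between the arms was -0.03. In NSi cells 1 member rose and 4 fell. In the edgeR test of the difference 2 members, Eif4g2 among them, had an unadjusted p under 0.05, and none passed after adjustment. Xiap, an inhibitor of caspases, stood at 45, 60.3 and 36.5 CPM on heavy polysomes, against 106, 80.4 and 114 CPM in input. The groups did not overlap, and Xiap fell by 1.08 (SE 0.20, adjusted p = 0.000227); in NSi cells it changed by -1.06. Birc2, a related inhibitor, fell by 0.83 (NSi -0.86), and Apaf1, the scaffold of the apoptosome, by 0.83 (NSi -0.79). Trp53 fell by 1.12 (NSi -1.09), a call lost without the first or the second heavy library. The fifth was Eif4g2 itself. Myc, Bcl2 and Cdk1 did not pass, with log2 changes of 0.31 (adjusted p = 0.162), 0.12 (adjusted p = 0.569) and 0.42 (adjusted p = 0.0642). Of 17 mRNAs known to depend strongly on eIF4E, 5 rose and 2 fell. The count of rises was near the background, since 26.7% of all genes tested rose and 21.2% fell. The median of the list, 0.34 (NSi 0.33), was -0.01 with library totals. Ccnd3, a D-type cyclin, rose by 1.61, and Bcl2l1, an inhibitor of apoptosis, by 1.01.

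The largest rises were spread over several kinds of gene. By rule, the 12 largest rises and the 12 largest falls are named among called genes that averaged at least 5 CPM over the 6 libraries and whose heavy and input libraries did not overlap. Groups did not overlap in 7861 of the 15072 genes (52.2%). Gstm1, a glutathione transferase, led at 6.75, 8.73 and 23.7 CPM on heavy polysomes, against 1.04, 3.21 and 0.769 CPM in input. The third heavy library was well above the other two, and the log2 change was 2.97 (SE 0.64, adjusted p = 0.000962). Lcn2, the secreted iron-carrier protein lipocalin 2, stood at 611, 531 and 1821 CPM on heavy polysomes, against 159, 203 and 100 CPM in input. Again the third heavy library was the highest and the third input the lowest, with a log2 change of 2.68 (SE 0.57, adjusted p = 0.000956). More even rises were those of Akr7a5, an aldehyde reductase, at 121, 110 and 163 CPM on heavy polysomes, against 24.4, 25 and 24.7 CPM in input, and of Mvb12a, a subunit of the ESCRT-I sorting complex, at 342, 314 and 389 CPM, against 67.5, 75.6 and 65.8 CPM. Akr7a5 rose by 2.41 (SE 0.16, adjusted p = 2.36e-08) and Mvb12a by 2.32 (SE 0.13, adjusted p = 5.94e-09). The others of the 12 were Psmb8, Cited4, Aldh3a1, Slpi, Cldn9, Krt13, Macrod1 and Chchd10, with log2 changes of 2.31 to 2.71. Lgals1, the sugar-binding protein galectin 1, had the highest level of all on shDap5 heavy polysomes, at 16063, 13390 and 21430 CPM, against 4129, 2980 and 4308 CPM in input. It rose by 2.16 on the log2 scale (SE 0.24, adjusted p = 2.36e-06).

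Among the largest falls, protein-coding genes stood beside noncoding RNAs. Kpna2, an importin that carries proteins into the nucleus, stood at 0.583, 0.598 and 0.272 CPM on heavy polysomes, against 20.7, 27.6 and 24.8 CPM in input. Its log2 change of -5.70 (SE 0.39, adjusted p = 2.36e-08) was the largest that the rule took, and it is low in counts on heavy polysomes. Prpf39, a protein of the U1 spliceosomal particle, stood at 14.7, 9.93 and 10.9 CPM on heavy polysomes, against 95.3, 114 and 97.5 CPM in input. The groups were far apart, and Prpf39 fell by 3.11 (SE 0.18, adjusted p = 5.94e-09). Paxbp1, a partner of Pax transcription factors, fell by 2.99, and Spaca6, a sperm membrane protein, by 3.86. Atp6v0c, of the vacuolar proton pump, and Rps18, a ribosomal protein, fell by 3.79 and 3.19, and both are at low counts and have genomic copies. Noncoding or unnamed transcripts filled most other places, among them 3110039I08Rik with a log2 change of -5.38, AI480526 with -4.81 and Gt(ROSA)26Sor with -3.73.

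Replication-dependent histone mRNAs, which end in a stem-loop and carry no polyA tail, are mostly lost in libraries of this kind. Of 36 tested, 22 rose and 1 fell, but 33 averaged under 5 CPM. The median was 2.37, against 0.50 in NSi cells, where 1 rose and 4 fell. In the edgeR test of the difference 10 had an unadjusted p under 0.05, and none passed after adjustment. The rises followed the second heavy library: Hist1h4h stood at 0.46, 2.68 and 1.04 CPM on heavy polysomes, against 0.223, 0.262 and 0.173 CPM in input, and Hist2h2ac at 0.0613, 1.64 and 0.08 CPM, against 0.0131, 0 and 0.0192 CPM. Without the second heavy library 5 rose and 2 fell. Of the 3 members that averaged at least 5 CPM over all libraries none rose and 1 fell.

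The median change was lower for proteins of 300 residues or more than for shorter ones. Lengths and base composition came from 1 coding transcript per gene in GENCODE release M21 (GRCm38) for 12887 genes. The median log2 change was 0.51 for proteins under 150 residues (889 genes), 0.51 for 150 to under 300 residues (2546 genes), 0.22 for 300 to under 600 (4952 genes), -0.08 for 600 to under 1200 (3307 genes) and -0.35 for 1200 or more (1193 genes). Of the longest class 8.47% rose and 32.3% fell. On shDap5 light polysomes the same medians fell more steeply, with 1.45 for the shortest class and -0.83 for the longest. For 1 value per library, the median log2 CPM of proteins under 150 residues minus that of proteins of 600 or more was taken. This gap was -0.69, -1.46 and -0.15 in the shDap5 heavy libraries, against -1.28, -1.41 and -1.40 in the inputs. The second heavy library lay below every input and the other two above, so the groups overlapped. The mean gap was 0.60 larger on heavy polysomes, which an exact two-sided permutation test over the 6 libraries did not separate from the spread (p = 0.4, with 0.1 the smallest p that 3 against 3 allows). Without the second heavy library the difference was 0.94, and without the third 0.29. With classes of under 300 and of 1200 or more residues, the gap was -0.26, -1.07 and 0.19 in the heavy libraries, against -1.25, -1.35 and -1.31 in the inputs. Here the groups did not overlap, and the difference of 0.92 had the smallest p the exact permutation test allows (p = 0.1).

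The median change was higher for genes with more GC in the coding sequence. The median log2 change was -0.69 below 45% coding GC (1538 genes), -0.18 for 45% to under 50% (2789 genes), 0.21 for 50% to under 55% (3541 genes), 0.52 for 55% to under 60% (3429 genes) and 0.67 at 60% or more (1590 genes). In the lowest class 46 genes rose and 839 fell, and in the highest 805 rose and 104 fell. The pattern was not particular to heavy polysomes. On shDap5 light polysomes over shDap5 input the median was -0.62 in the lowest class and 0.54 in the highest. Across genes, the log2 change and coding GC had a Pearson r of 0.437 and a Spearman rho of 0.465, and with GC at the third codon position 0.451 and 0.473. Genes are not independent replicates, they share the libraries, and the correlations are given as a description. Length and GC had an r of -0.0872 across genes, and within proteins of 300 to under 600 residues the median still ran between -0.66 below 45% GC and 0.66 at 60% or more. The gap in median log2 CPM between genes of 60% or more and genes under 45% coding GC was 0.15, 0.02 and 0.63 in the shDap5 heavy libraries, against -1.08, -0.87 and -1.16 in the inputs. All heavy libraries were above all inputs. The mean gap differed by 1.30 (exact two-sided permutation test, p = 0.1, the smallest p possible). The GC gap was added after earlier results were known. In NSi cells it was 0.25 ± 0.42 on heavy polysomes and -0.85 ± 0.0815 in input (SD, n = 3 each). The gap on shDap5 light polysomes was 0.0875 ± 0.115 (SD, n = 3). Base composition also affects how well fragments are amplified and sequenced, and the part of library preparation in this pattern was not tested.

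To show what such coding sequences look like, the middle 30 codons are printed for the 3 largest rises with coding GC of 60% or more and the 3 largest falls below 45%, among called genes that averaged at least 50 CPM, had proteins of 150 to under 1200 residues and did not overlap between groups. The sequences are the coding strand of GENCODE M21 transcripts on GRCm38, 5′ to 3′ and in frame, and capitals mark G or C at the third base of a codon.
Akr7a5: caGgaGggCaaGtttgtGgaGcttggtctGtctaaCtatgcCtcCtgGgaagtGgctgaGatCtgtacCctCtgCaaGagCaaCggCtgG
Mvb12a: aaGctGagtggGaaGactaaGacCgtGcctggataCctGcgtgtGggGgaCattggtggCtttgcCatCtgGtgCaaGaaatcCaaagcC
Atp5d: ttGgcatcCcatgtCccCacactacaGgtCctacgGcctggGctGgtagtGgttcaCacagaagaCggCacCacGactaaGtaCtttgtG
Prpf39: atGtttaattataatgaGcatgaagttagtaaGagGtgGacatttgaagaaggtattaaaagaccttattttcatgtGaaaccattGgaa
Ttc14: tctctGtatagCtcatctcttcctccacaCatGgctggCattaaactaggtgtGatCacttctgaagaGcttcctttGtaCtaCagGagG
Taf1d: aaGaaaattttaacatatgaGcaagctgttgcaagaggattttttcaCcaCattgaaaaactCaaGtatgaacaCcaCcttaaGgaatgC
In these stretches 22 codons of Akr7a5, 20 of Mvb12a and 18 of Atp5d ended in G or C, against 7 of Prpf39, 13 of Ttc14 and 10 of Taf1d. Over the whole coding sequence G or C stood at 79.3%, 74.2% and 68.5% of bases at the third position in the genes that rose and at 31.9%, 41.1% and 31.7% in those that fell. Ttc14, a protein with tetratricopeptide repeats, stood at 18.4, 18.1 and 10.9 CPM on shDap5 heavy polysomes, against 85.3, 79.1 and 90.9 CPM in shDap5 input, a log2 change of -2.43. Taf1d, a factor of RNA polymerase I transcription, stood at 37.3, 23.7 and 32.6 CPM, against 184, 131 and 187 CPM, a change of -2.42. These genes were chosen by their change and by their GC, so their composition shows the pattern and is no evidence for it.

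**Figure D3:**
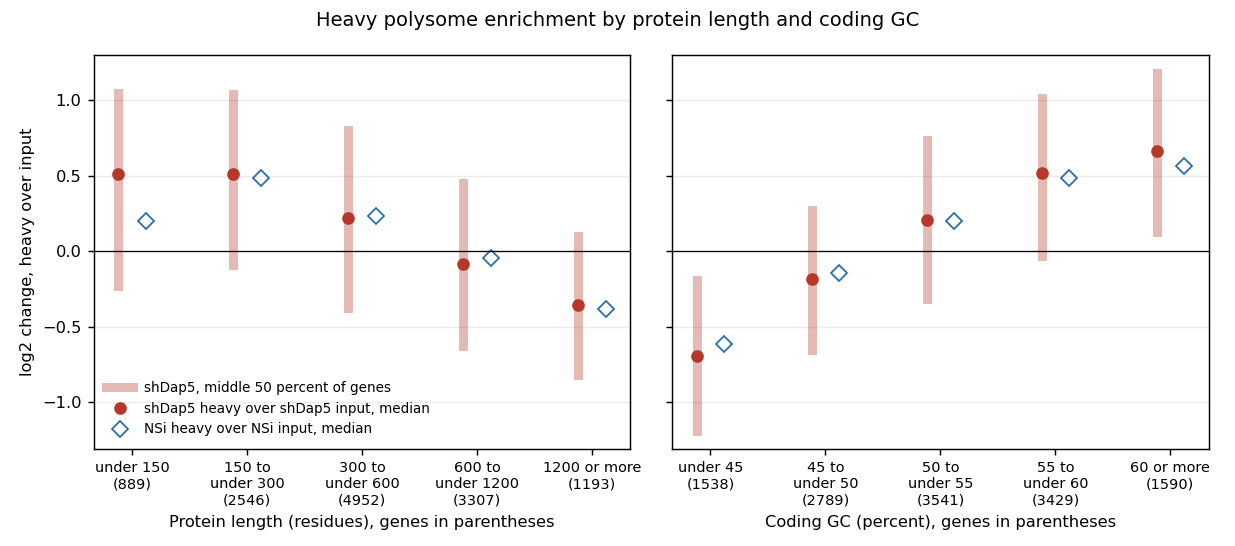
Median log2 change, heavy polysomes over input, by protein length in residues (left panel) and coding GC in percent (right panel), with genes per class in parentheses. Filled circles are shDap5, bars the middle 50 percent of genes in shDap5, and open diamonds NSi; shDap5 medians run between 0.51 and -0.35 over length and between -0.69 and 0.67 over GC.

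**Figure D4:**
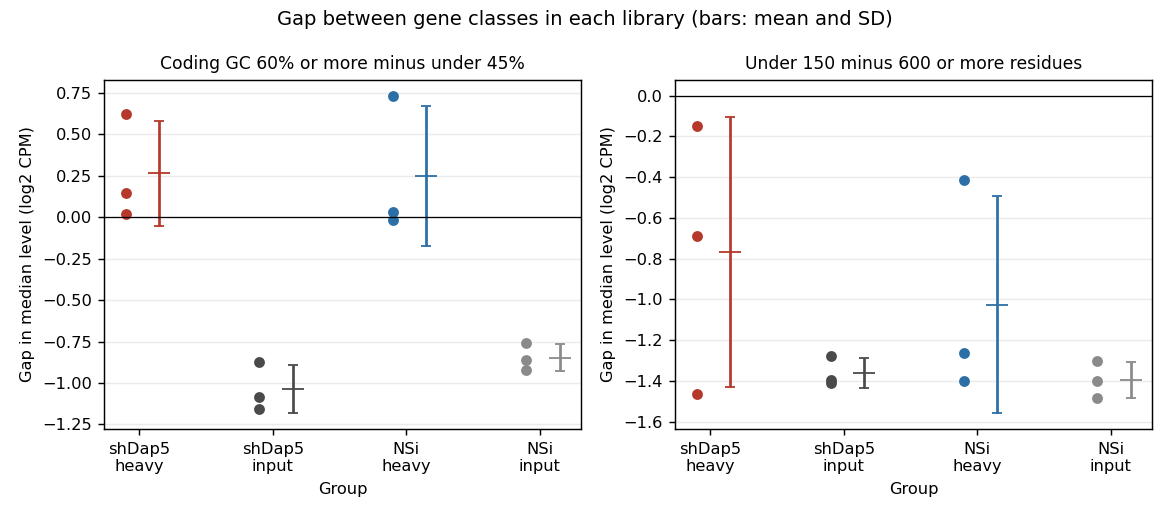
Gap in median level (log2 CPM) between gene classes in each library: coding GC of 60% or more minus under 45% (left panel) and proteins under 150 minus 600 or more residues (right panel). Points are libraries and bars the mean and SD of 3; the GC gap of each shDap5 heavy library lies above those of the shDap5 inputs, while the length gaps overlap.

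The same enrichment was then set beside that of control cells, which have their own heavy and input libraries. In NSi cells 7029 of 15072 genes were called between heavy polysomes and input (46.6%), 3980 higher (26.4%) and 3049 lower (20.2%). Across all genes tested, the shDap5 and NSi log2 changes had a Pearson r of 0.86 and a Spearman rho of 0.879, a description over genes that are not independent. No gene passed the test of the difference between the enrichments after adjustment in edgeR (0%), against 295 at an unadjusted p under 0.05 (1.96%); DESeq2 also called none and had 360 at an unadjusted p under 0.05. A test that calls none does not show that the enrichments were equal. Without the second shDap5 input, the library that stood apart, 9 genes passed in edgeR. In that fit 1438 of 15345 genes had an unadjusted p under 0.05, so the outcome of the test depended on this library. The 9 that passed were Selp, Atf5, Cox6a2, Bdh2, Arl4d, Lrrc75b and Angptl6, with enrichments higher in shDap5, and Fads2 and Zfpm2, with lower ones.

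The 5 genes that came closest in the test of the difference, at a mean of at least 5 CPM, are given as values, since none passed. Ptbp2 changed by -2.68 in shDap5 and -1.88 in NSi cells, a difference of -0.80 (unadjusted p = 0.000866). Neil3, a DNA glycosylase, stood at 20.9, 20.6 and 17.7 CPM on shDap5 heavy polysomes, against 96.7, 93 and 94.8 CPM in shDap5 input, and its changes were -2.27 in shDap5 and -1.51 in NSi cells. Cst6, a secreted protease inhibitor, changed by 1.24 in shDap5 and 0.32 in NSi cells, and Gramd2 by -0.90 and -0.02. Fads2, a fatty acid desaturase, stood at 143, 140 and 128 CPM on shDap5 heavy polysomes, against 157, 62.9 and 165 CPM in shDap5 input. The second input lay far below the other two, and the log2 change was 0.09 in shDap5 and 1.17 in NSi cells. Without that input Fads2 changed by -0.23 in shDap5. Among the lists, the median of the replication-dependent histones, mostly at low counts, stood at 2.37 in shDap5 and 0.50 in NSi cells. Without the second heavy library the shDap5 value was 0.73. The median of cholesterol synthesis stood at 0.05 in shDap5 and 0.80 in NSi cells. That of S100 proteins and metallothioneins stood at 0.98 and 0.44, and that of S phase at 0.30 and 0.78. Without the second shDap5 input the shDap5 medians of cholesterol synthesis and S phase were -0.27 and 0.06, and without the third heavy library that of the S100 list was 0.55. No member of these lists passed the test of the difference.

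**Figure D5:**
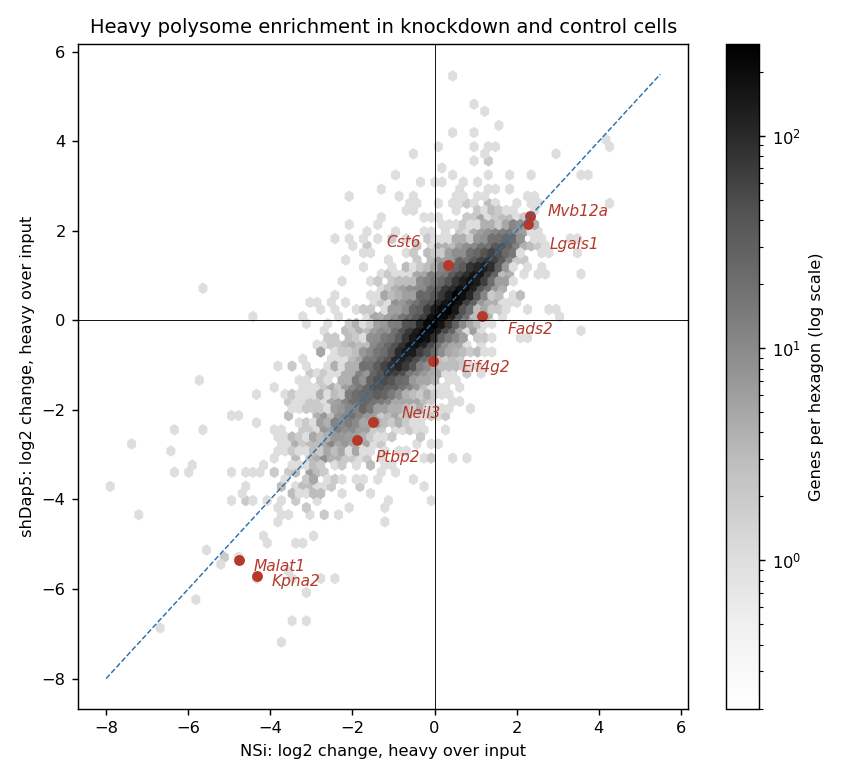
Log2 change, heavy polysomes over input, in shDap5 cells (vertical axis) and NSi cells (horizontal axis) for all 15072 genes tested, shaded by genes per hexagon on a log scale; the dashed line marks equal change. Malat1 and Kpna2 lie far down in both arms, Mvb12a and Lgals1 far up in both, and the labelled Ptbp2, Neil3, Cst6 and Fads2 lie off the line without passing the test of the difference.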

How the data were processed

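The deposited files hold raw read counts by gene symbol, 1 file per library, from polyA-selected stranded libraries of mouse cells. The submitters' processing notes name Bowtie and the build mm9. How genes were counted, from which annotation, with or without strand, and what became of shared reads the sources used here do not give. A fold change of an antisense, overlapping or multicopy gene is therefore uncertain. Libraries were grouped by their titles. Each file listed 35976 symbols, of which 27 looked like spreadsheet dates and are not named.

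From these counts, all 18 libraries were fitted together in edgeR 4.0.16 (R 4.3.3) with 1 mean per group, TMM scaling and a robust quasi-likelihood fit, with 12 residual degrees of freedom; the common BCV (biological coefficient of variation) was 0.227. Genes were kept by filterByExpr (at least 10 counts in enough libraries, 15 in all), which left 15072. SEs were computed as the absolute log2 change over the root of F. DESeq2 1.42.0 was run as an alternative. The pipeline was tested on simulated counts. Library gaps used log2 of CPM plus 0.5. GENCODE release M21 matched 27273 of 35974 distinct symbols and was used for lengths, composition and biotypes only, since its build (GRCm38) differs from that of the files; no coordinates are given. Named genes are Eif4g2, Eif3d, Malat1, Neat1, Gas5, Atf4, Fth1, Actb, Eef1a1 and Vim; the 12 largest rises, the 12 largest falls and the 10 largest falls of coding genes among called genes that averaged at least 5 CPM and did not overlap; the 8 highest on heavy polysomes; up to 6 per list by p-value; and the 5 nearest to passing in the test of the difference. Not all are described. Krt8, Krt18, Cdh1 and Epcam are epithelial markers outside this rule, Ttc14 and Taf1d follow the rule given with the sequences, and Eif4a2, Eif5, Eif4g1, Eif4e, Myc and Bcl2 were chosen after their values were seen. The comparison, the genes and the lists were chosen with earlier results of these data known.

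Alternatives were other scalings (RLE, upper quartile, library totals), no filter or a mean of at least 5 CPM, the 6 compared libraries alone, DESeq2, a replicate block, and each library left out in turn. Results for some genes are not reported here.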

Additional observations from a re-analysis of the deposited data

How the results depend on the processing

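The count of 7209 genes called between shDap5 heavy polysomes and input stayed within 1.5 times under every alternative run: 7209 with RLE, 7258 with upper quartile scaling (3121 higher, 4137 lower), 7528 with library totals (2255 higher, 5273 lower), 6665 with no filter, 5783 at a mean of at least 5 CPM, 5867 with the 6 libraries alone and 7564 with DESeq2. Leaving out 1 library gave 6051 to 7295. With the replicate block 8058 genes were called, 7139 of them shared with the fit without it, and the NSi comparison called 7905; the numbers in the titles are not taken to pair libraries, since across 9429 genes the deviations of same-numbered heavy and input libraries had correlations of 0.44, 0.218 and -0.263 in shDap5 and 0.104, -0.198 and -0.325 in NSi. Under the block the exact sign-flip test gave p = 0.5 for the length gap and p = 0.25, the smallest it allows, for the GC gap. Leaving out 1 library gave 0 to 9 genes in the test of the difference, and all 9 came without the second shDap5 input; the other alternatives gave 0.

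Over the 242 named genes, 3217 values kept their direction and side of the threshold, 102 lost the call, 12 gained one and 20 changed sign. No gene that changed sign was called. With library totals these were Hsp90ab1 (-0.0050), Tie1 (-0.21), CYTB (-0.20) and Fads2 (-0.25); with upper quartile scaling Tie1 (-0.018), CYTB (-0.00345) and Fads2 (-0.058); and at a mean of at least 5 CPM CYTB (-0.013) and Fads2 (-0.077). With 1 library left out, the range was -0.14 to 0.46 for Tie1 and for CYTB (lowest without the first heavy library), -0.51 to 0.041 for Cdh5 and -0.37 to 0.088 for ND5 (highest without the third), -0.79 to 0.020 for Slc40a1, -1.08 to 0.20 for Col1a1 and -0.46 to 0.15 for COX1 (highest without the second input), -0.23 to 0.32 for Fads2 (lowest without it) and -0.68 to 0.090 for Tek (highest without the third input). The cause of these changes was not tested. The GC gap ran between 1.12 and 1.43 with 1 library left out and was 1.36 within proteins of 300 to under 600 residues.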

Other observations

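A few RNAs with no known protein had a positive log2 change between shDap5 heavy polysomes and shDap5 input. They are exceptions, since 37 of the 924 tested genes that GENCODE annotates as noncoding rose and 317 fell. Bc1, a small cytoplasmic RNA best known from neurons, stood at 63.9, 53.3 and 50.4 CPM on heavy polysomes, against 20.6, 38 and 14.2 CPM in input, and rose by 1.20 on the log2 scale (adjusted p = 0.0266 by edgeR). D030025P21Rik, annotated as antisense, stood at 12.8, 11.3 and 24.6 CPM on heavy polysomes, against 7.06, 5.84 and 5.67 CPM in input, a log2 change of 1.39; whether the counts used strand is not known. Gm15564, also antisense and with a log2 change of 1.42, stood at 4.32, 557 and 14.8 CPM on heavy polysomes, against 67.6, 80.6 and 67.4 CPM in input. The second heavy library alone was high, and the gene was not called (adjusted p = 0.359). These RNAs were chosen after their values were seen.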
